A study of Sus scrofa with 6 samples.

Results

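Copying the nuclear genome needs 3 DNA polymerases, and the genes of their subunits were followed here in pig intestinal epithelial cells treated with a bile acid. The 10 genes were chosen by name, for the known role of their products, with earlier results of these data known. POLA1, POLA2 and PRIM1 belong to polymerase α-primase, POLD1, POLD3 and POLD4 to polymerase δ, and POLE, POLE2, POLE3 and POLE4 to polymerase ε. All 10 were found among the 31908 listed gene IDs. The deposited name gave 5 of them, and the description gave 4 whose name was blank. POLE2 was found by its ID (ENSSSCG00000005008), which bore the description of POLE2 but the name DNAAF2, a gene that lies next to POLE2 in the RefSeq annotation of the pig. No other ID bore that name, so reads of DNAAF2 in this value cannot be told apart from those of POLE2. With a mean of at least 1 TPM (transcripts per 1000000 transcripts) over the 6 libraries, 8 of the 10 genes could be tested, among 8708 tested genes in all. POLD1 and POLE3 lay under this limit. The complexes have 12 subunits, and the remaining PRIM2 and POLD2 are described beside the 10.

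The cells were IPEC-J2, a permanent pig line used as a model of the small intestine's lining. The CON group was 3 libraries from cells given PBS, and the CDCA group was 3 libraries from cells given 50 μM chenodeoxycholic acid (CDCA, dose from the study's methods), a primary bile acid, in both cases for 24 h. The labels give no other difference between the groups. The study calls the libraries of a group biological replicates, but the labels do not say whether they came from separate cultures, so the tests measure only the spread between these libraries.

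Each library's listed TPM added up to between 351770 and 366073, and no read counts per gene were used. The study states each library's read total, but the reads behind a single TPM value are unknown here. PCNA, the sliding clamp that every dividing cell needs, was listed at only 0.28 to 0.53 TPM, so a gene listed near 0 is not read here as silent. The mtDNA-encoded mRNAs took 13.8% to 15.03% of this sum in CON, and only 2.90% to 3.45% in CDCA, which bears on every TPM value. The results were also computed without them, with each library brought back to its listed sum. That sum is short of 1000000, so these mRNAs weigh more in it than in a full library. Removing them here therefore moves values further than removal from a full library would. CON replicate 3 and CDCA replicate 2 stood apart on the second principal component (-18.6 and -15.5, against 6.03 to 10.5 for the others). Of 8 epithelial markers, EPCAM (118 to 173 TPM), KRT8, KRT18 and CLDN4 were well expressed, CDH1 and VIL1 were under 1 TPM in every library, CDX2 was at 0 to 0.02 TPM and KRT19 was not matched by name. Their summed level was 624 to 648 TPM in CON and 1182 to 1322 TPM in CDCA, mostly through CLDN4 (215 to 237 and 765 to 863 TPM). The summed levels of 4 fibroblast markers, of 3 leukocyte markers and of the 2 listed of 3 endothelial markers lay between 0.97 and 2.49 TPM in every library. The part of these markers in the results was not tested.

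Polymerase α-primase starts each new DNA strand. Its primase lays down a short RNA primer and its polymerase adds a stretch of DNA, after which polymerase ε extends the leading strand and polymerase δ the lagging strand. In normal cells the genes of these enzymes are expressed with the cell cycle and are highest around S phase, and the small intestine renews its epithelium by constant division in the crypts. In bulk RNA, fewer cells that carry a transcript and fewer transcripts per cell give the same lower value and cannot be told apart.

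Most subunits of the 3 polymerases had fewer transcripts in CDCA than in CON, with the largest fall for POLE. POLD4 was slightly higher, though not at a false discovery rate under 0.05 in 4 of 15 alternative settings. The direction of POLE4 depended on the scaling. Differences between CDCA and CON were tested by limma on log2(TPM + 1), and a gene was called where the false discovery rate (FDR) over all tested genes was under 0.05 and the change was larger than 1 on the log2 scale, in either direction. Of the 8 tested genes, 5 were called lower (POLA1, POLA2, PRIM1, POLE and POLE2), where 3.9% of all tested genes were called lower. limma called none higher, against 3.51% of all tested genes. At an unadjusted p under 0.05 in limma, 6 were lower and 2 higher, beside 26.7% and 32.3% of all tested genes. Without the limit on the fold change, 6 were lower and 2 higher at an FDR under 0.05, beside 23.9% and 29.3% of all tested genes. The CDCA libraries all lay below the CON libraries for 6 of the 8 and all above them for the other 2, against 27.8% and 33.7% of all tested genes. All 8 had a mean of at least 1 TPM in both groups, so none passed the limit through 1 group alone. The median log2 fold change of the 8 was -1.11, and that of all tested genes was 0.05. When totals were computed without the mtDNA-encoded mRNAs, the median of all tested genes moved by -0.15 and the split of calls over all genes from 340 lower and 306 higher to 485 lower and 221 higher.

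**Figure D1:**
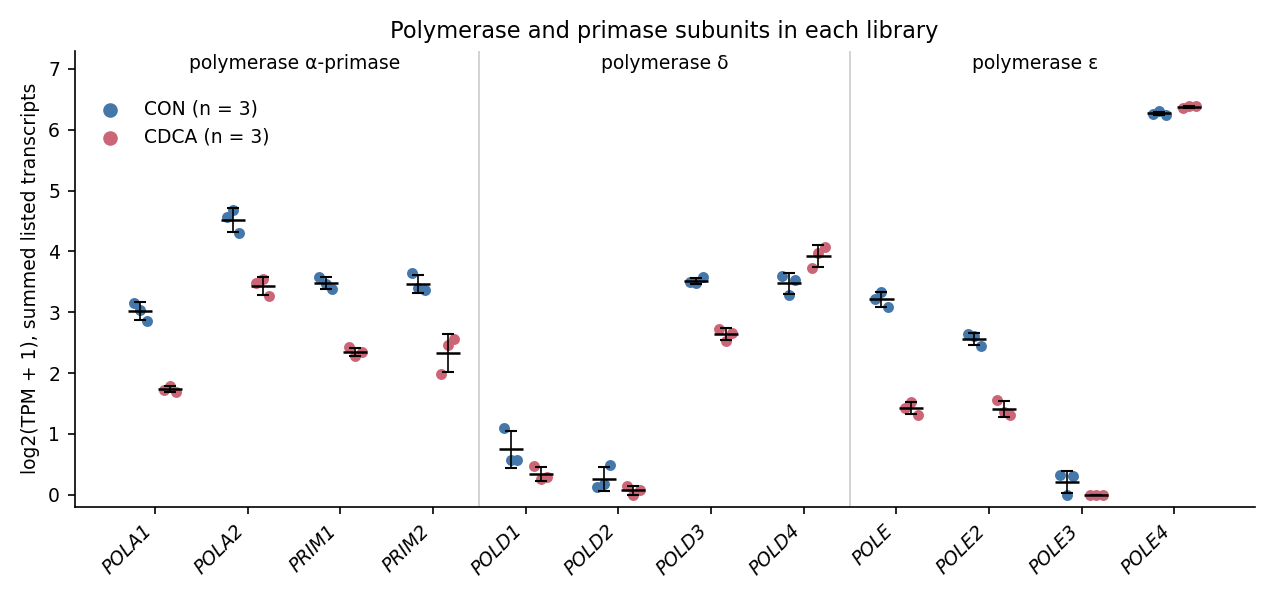
Level of each of the 12 subunits, as log2(TPM + 1), in the 3 CON and the 3 CDCA libraries. Each point is a library, the bar is the mean and the whiskers are 1 SD on that scale; all subunits of polymerase α-primase, and POLD3, POLE and POLE2, lie lower in CDCA without overlap, whereas POLD4 and POLE4 lie slightly higher (POLE4 not so without the mtDNA-encoded mRNAs in the totals), and POLD1, POLD2 and POLE3 lie near 0.

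POLA1 (ENSSSCG00000022240) encodes the catalytic subunit of polymerase α. Its summed transcripts were at 7.91, 7.22 and 6.27 TPM in CON, against 2.28, 2.45 and 2.24 TPM in CDCA. The groups did not overlap, and the 3 CDCA libraries lay close together. The mean fell from 7.13 ± 0.82 to 2.32 ± 0.11 TPM (SD, n = 3 each), 3.07-fold lower in mean TPM. On the log2(TPM + 1) scale of the test, where the added 1 TPM makes changes of low genes smaller, the change was -1.29 ± 0.10 (SE, limma FDR 8.2e-05). This was the fall of rank 213 among the 8708 tested genes.

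POLA2 (ENSSSCG00000012997), the regulatory B subunit that ties the polymerase to primase, had the highest listed TPM of this complex. It was listed at 22.8, 24.6 and 18.7 TPM in CON, against 10.1, 10.7 and 8.64 TPM in CDCA. CON replicate 3 and CDCA replicate 3 were the lowest libraries of their groups, and the groups did not overlap. Its mean was 22.02 ± 3.0 in CON and 9.82 ± 1.1 TPM in CDCA (SD, n = 3 each), 2.24-fold lower in mean TPM. The change in log2(TPM + 1) was -1.08 ± 0.12 (SE, limma FDR 0.00038).

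PRIM1 (ENSSSCG00000026055) encodes the catalytic subunit of primase, which makes the RNA primer. It was at 11.01, 10.1 and 9.43 TPM in CON, against 4.36, 3.85 and 4.06 TPM in CDCA, with no overlap. The mean fell from 10.2 ± 0.79 to 4.09 ± 0.26 TPM (SD, n = 3 each), and the change in log2(TPM + 1) was -1.13 ± 0.08 (SE, limma FDR 6.5e-05). Its partner PRIM2 (ENSSSCG00000001493), the regulatory subunit of primase, was at 11.5, 9.59 and 9.28 TPM in CON, against 2.94, 4.52 and 4.92 TPM in CDCA. CDCA replicate 1 was the lowest, and the mean fell from 10.1 ± 1.2 to 4.13 ± 1.0 TPM (SD, n = 3 each). The log2 fold change of PRIM2 was also -1.13 (SE 0.17, limma FDR 0.0015), and PRIM2 was called lower; with CDCA replicate 1 left out its log2 fold change was -0.95, under the limit for a call.

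POLE (ENSSSCG00000033051), the catalytic subunit of polymerase ε, had the largest fall among the tested subunits. It was listed at 8.32, 9.05 and 7.49 TPM in CON, against 1.69, 1.87 and 1.49 TPM in CDCA. The lowest CON library was far above the highest CDCA library. The mean fell from 8.29 ± 0.78 to 1.68 ± 0.19 TPM (SD, n = 3 each), which was 4.92-fold lower in mean TPM. Its log2(TPM + 1) changed by -1.79 ± 0.10 (SE, limma FDR 2.6e-05). This was the fall of rank 64 among all tested genes. POLE2, the accessory B subunit, was at 5.21, 5.07 and 4.43 TPM in CON, against 1.94, 1.56 and 1.47 TPM in CDCA under the ID named above. Its groups did not overlap either. The mean fell from 4.90 ± 0.42 to 1.66 ± 0.25 TPM (SD, n = 3 each), and the log2(TPM + 1) of POLE2 changed by -1.15 ± 0.11 (SE, limma FDR 0.0002).

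POLE4 (ENSSSCG00000038307) encodes a small histone-fold subunit of polymerase ε, and had the highest listed TPM of the 12 subunits in both groups. It was at 75.7, 78.0 and 74.98 TPM in CON, against 81.4, 82.5 and 83.3 TPM in CDCA. The CDCA libraries all lay above the CON libraries, by a small margin. The log2 fold change was 0.11 (95% interval 0.03 to 0.19, limma FDR 0.034), and its FDR was under 0.05 in only 2 of the 15 alternatives. With totals computed without the mtDNA-encoded mRNAs the log2 fold change was -0.06 (limma FDR 0.19). These were totals of the listed TPM, where those mRNAs weigh more than in a full library. With median ratio scaling the log2 fold change was 0.06 (limma FDR 0.17), so no direction is given for POLE4. POLE3 (ENSSSCG00000005478), its histone-fold partner, stood at 0.25, 0 and 0.24 TPM in CON, while each CDCA library had it listed at 0. Both of its listed transcripts were near 0, so its level was not measurable in this list.

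For polymerase δ the list covered the core poorly. POLD1 (ENSSSCG00000003216), the catalytic subunit with its own proofreading exonuclease, was listed at 1.14, 0.48 and 0.49 TPM in CON, against 0.39, 0.19 and 0.22 TPM in CDCA. The CDCA libraries lay below the CON libraries, but all values were near or under 1 TPM. With no filter on low values its log2 fold change was -0.41 (95% interval -0.82 to 0.00, limma FDR 0.16), and with the listed TPM rescaled to 1000000, where it reached the limit on the mean, it was -0.71 (limma FDR 0.083). POLD2 (ENSSSCG00000016753), the B subunit, had 1 listed transcript at 0 to 0.40 TPM over the 6 libraries, and its groups overlapped.

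POLD3 (ENSSSCG00000027506), an accessory subunit that binds the sliding clamp, was at 10.3, 10.1 and 10.9 TPM in CON, against 5.61, 4.77 and 5.30 TPM in CDCA. The groups did not overlap, and the mean was lower, from 10.4 ± 0.41 to 5.23 ± 0.42 TPM (SD, n = 3 each). Its log2 fold change of -0.88 (SE 0.07, limma FDR 0.00013) passed the FDR but not the limit on the fold change. When totals were computed without the mtDNA-encoded mRNAs it was -1.05, and POLD3 was called lower. These were totals of the listed TPM, where those mRNAs weigh more than in a full library.

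POLD4 (ENSSSCG00000012916), the smallest subunit of polymerase δ, whose protein is removed after DNA damage, was at 11.1, 8.75 and 10.6 TPM in CON, against 12.3, 14.7 and 15.8 TPM in CDCA. The lowest CDCA library lay just above the highest CON library. The mean was 10.2 ± 1.2 in CON and 14.3 ± 1.8 TPM in CDCA (SD, n = 3 each), a ratio of 1.40. The log2 fold change of 0.45 (95% interval 0.17 to 0.74, limma FDR 0.017) passed the FDR and not the limit on the fold change. With CDCA replicate 2 or CDCA replicate 3 left out the FDR was 0.053 and 0.055, and with totals computed without the mtDNA-encoded mRNAs it was 0.085, with a log2 fold change of 0.29.

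**Figure D2:**
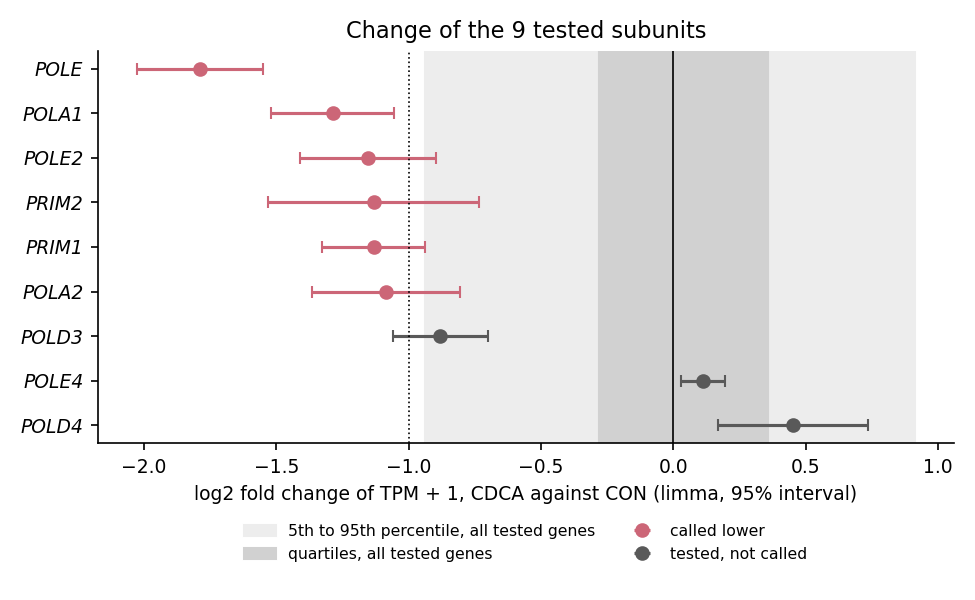
Log2 fold change of TPM + 1 in CDCA against CON for the 9 tested subunits, with 95% intervals from limma. The 6 called subunits lie between -1.79 and -1.08, left of the 5th percentile of all tested genes (-0.94), while POLD4 and POLE4 lie to the right of 0 (POLE4 at -0.06 without the mtDNA-encoded mRNAs in the totals).

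TPM is a level per transcript length, so the listed levels of subunits can be set beside each other. The order is one of listed values only, since transcripts that are not in the list could change it, above all for POLD1, POLD2 and POLE3. In CON, POLE4 was highest at 76.2 TPM and POLA2 followed at 22.02 TPM. POLD3, PRIM1, POLD4 and PRIM2 lay together at 10.1 to 10.4 TPM, with overlapping libraries, and POLE (8.29 TPM) and POLA1 (7.13 TPM) also overlapped. POLE2 was lower, at 4.90 TPM, followed by POLD1, POLD2 and POLE3. In CDCA the order changed: POLD4 stood second, at 14.3 TPM and above POLA2 without overlap. POLA1 lay above POLE, with 2.32 against 1.68 TPM and no overlap, and POLE and POLE2 overlapped.

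A ratio of the TPM of 2 genes within a library is not changed by scaling that library, which does not hold once 1 TPM is added. For 11 pairs, the difference of log2(TPM + 1) between the subunits was compared between the groups by an exact two-sided permutation test, and for the 9 pairs without a 0 the log2 ratio of TPM itself was compared in the same way. With 3 libraries against 3 this exact permutation test cannot go below p = 0.1, so none of the pairs could pass 0.05. The ratio of POLE4 to POLE was 9.10, 8.62 and 10.01 in CON, against 48.2, 44.1 and 55.9 in CDCA. The mean ratio was 5.34 times as high in CDCA, without overlap (exact permutation test, p = 0.1, 0.16 after adjustment over the 11 pairs). POLE2 to POLE was 0.63, 0.56 and 0.59 in CON and 1.15, 0.83 and 0.99 in CDCA, also without overlap (exact permutation test, p = 0.1, 0.16 after adjustment). POLE thus stood lower, relative to both measured accessory subunits, in each CDCA library than in any CON library.

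For polymerase α-primase the result depended on the added 1 TPM. The ratio of POLA2 to POLA1 was 2.88, 3.40 and 2.99 in CON and 4.44, 4.37 and 3.86 in CDCA, and that of PRIM1 to POLA1 was 1.39, 1.39 and 1.5 in CON and 1.91, 1.57 and 1.81 in CDCA. Neither overlapped on the TPM scale, with mean ratios 1.37 and 1.23 times as high in CDCA, and both had p = 0.2 by the exact permutation test (0.24 after adjustment). Without the added 1 TPM, the log2 ratios differed between the groups by 0.45 and 0.30 instead of 0.20 and 0.15, each with p = 0.1 in the exact permutation test (0.18 after adjustment over 9 pairs). PRIM2 to POLA1 overlapped between the groups (exact permutation test, p = 0.5, 0.55 after adjustment).

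A further 2 ratios were chosen after the values were seen and were given no test. PRIM2 to PRIM1 was 1.04, 0.95 and 0.98 in CON, near 1 in each library, and 0.67, 1.17 and 1.21 in CDCA, on either side of 1. POLE to POLA1, both catalytic subunits, was 1.05, 1.25 and 1.19 in CON and 0.74, 0.76 and 0.67 in CDCA.

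The 6 pairs with POLD1, POLD2 or POLE3 rest on values near 0, where the added 1 TPM weighs most. POLD4 to POLD1 was 9.76, 18.2 and 21.6 in CON and 31.4, 77.4 and 71.9 in CDCA, without overlap (exact permutation test, p = 0.1, 0.16 after adjustment). POLD3 to POLD1 overlapped as a ratio of TPM, with 9.03 to 22.3 in CON and 14.4 to 25.1 in CDCA, and its direction depended on the added 1 TPM. On the scale with 1 TPM added it changed by -0.47, POLE to POLD1 by -1.38, POLA1 to POLD1 by -0.88 and POLE3 to POLE by 1.58, each with p = 0.1 in the exact permutation test (0.16 after adjustment). As ratios of TPM, these 4 pairs overlapped between the groups, and without the added 1 TPM POLE to POLD1 had p = 0.2 and POLA1 to POLD1 p = 0.6 in the exact permutation test (0.30 and 0.60 after adjustment). The ratio of TPM of POLE3 to POLE was 0.030, 0 and 0.032 in CON and 0 in each CDCA library. The direction of this pair therefore also depended on the added 1 TPM. POLD2 to POLD1, with a 0 in CDCA replicate 2, overlapped as a ratio of TPM and had p = 0.6 in the exact permutation test with 1 TPM added (0.60 after adjustment). Its mean ratio of TPM was 0.39 in CON and 0.16 in CDCA, whereas its change with 1 TPM added was 0.22, so its direction depended on that addition.

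**Figure D3:**
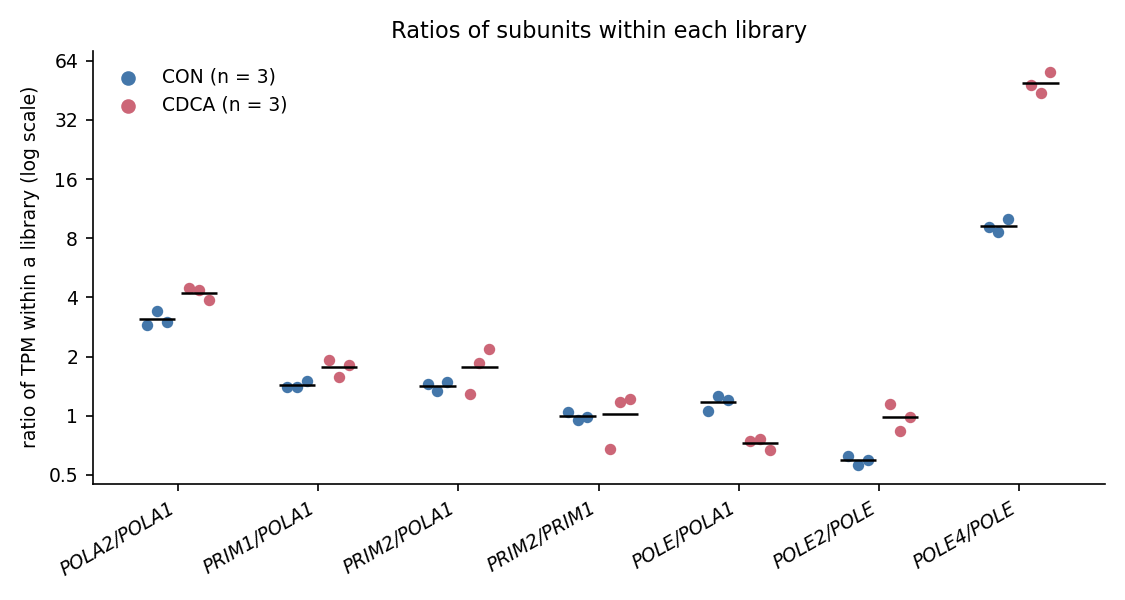
Ratio of the TPM of 2 subunits within each library, on a log axis, for 7 pairs without values near 0. Points are libraries and bars are group means; POLE4/POLE rises from about 9.24 to 49.4, whereas PRIM2/PRIM1 stays near 1 on average in both groups.

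Single listed transcripts were also compared, without a test. The 2 leading transcripts of POLA1, which held 54.8% and 39.3% of its TPM in CON, stood in CDCA at 0.293 and 0.337 of their CON level. Those of POLA2 had ratios of 0.422 and 0.436, and their shares of the gene hardly moved, from 64.2% and 32.9% in CON to 60.8% and 32.1% in CDCA. For POLE4 the ratios were 1.07 and 1.11. For POLD3 they were 0.5 and 0.505, with the second transcript under 1 TPM. In POLD4 the leading transcript, with 92.97% of the TPM in CON, had a ratio of 1.44 and the minor one, also under 1 TPM, lay on the other side of 1, at 0.879. PRIM1 had 1 listed transcript, and POLE had 1 above 0, so a shift to unlisted transcripts of these genes would not be seen.

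Other proteins of the fork were read from the same test, on lists written from general knowledge. Of the 6 subunits of the MCM helicase, which unwinds DNA ahead of polymerase ε, 5 were tested and all were called lower. Over all tested genes, 3.9% were called lower. The log2 fold changes ran from -2.03 for MCM3 to -1.40 for MCM7. MCM6 was under the limit, at 0.62 to 1.02 TPM in CON and 0.22 to 0.57 TPM in CDCA. Among 15 fork partners of polymerases ε and α, 14 were listed and 6 were tested, and 1 was called lower, DSCC1 (-2.24), part of the clamp loader that binds polymerase ε. GINS3 (-0.995), WDHD1 (-0.95), MCM10 (-0.94), CDC45 (-0.92) and TIMELESS (-0.63) had an FDR under 0.05 and did not pass the limit on the fold change. With DSCC1 this made 6 lower of 6 tested at an FDR under 0.05, beside 23.9% of all tested genes. GINS3, a subunit of the GINS complex that holds polymerase ε to the helicase, fell from 4.65 ± 0.37 to 1.83 ± 0.20 TPM (SD, n = 3 each). WDHD1, which ties polymerase α to the helicase, fell from 8.73 ± 0.94 to 4.02 ± 0.24 TPM (SD, n = 3 each). DSCC1 and TIMELESS passed the limit on the mean through CON alone. The count of called fork partners moved from 1 to 6 when totals were computed without the mtDNA-encoded mRNAs, to 7 with the listed TPM rescaled to 1000000, to 3 without CON replicate 3 or CDCA replicate 2, and to 2 without CDCA replicate 1 or CDCA replicate 3 or with median ratio scaling. Over all genes, the lower calls moved from 340 to 485 without the mtDNA-encoded mRNAs and to 481 with the rescaling to 1000000.

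Of 10 partners of polymerase δ on the lagging strand, 9 were tested, and their median change was -0.13 on the log2 scale (-0.10 over the 8 with a mean of at least 1 TPM in both groups). FEN1, the flap endonuclease, was called lower (-2.06, limma FDR 0.0013) and was at 7.35, 10.2 and 9.80 TPM in CON, against 2.45, 0.53 and 1.63 TPM in CDCA. DNA2 (-0.48), LIG1 (-0.47) and RNASEH2A (-0.33) were lower and POLDIP2 (0.20) was higher at an FDR under 0.05, none of them called. With FEN1 this made 4 lower and 1 higher of 9, beside 23.9% and 29.3% of all tested genes, and LIG1 passed the limit on the mean through CON alone.

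Of 15 DNA polymerases and accessory proteins outside the replicative complexes, 10 were tested. POLQ, the polymerase of end joining through short homologies, and MAD2L2, a subunit of polymerase ζ, were called lower, beside 3.9% of all tested genes. Each had a log2 fold change of -1.11, and MAD2L2 was at -0.97, and not called, without CON replicate 1. Both passed the limit on the mean through CON alone, POLQ at 3.09, 2.80 and 2.41 TPM in CON and 0.80, 0.76 and 0.67 TPM in CDCA. None of the 8 genes of this list with a mean of at least 1 TPM in both groups was called. At an FDR under 0.05 without the limit on the fold change, 4 of the 10 were lower and 3 higher, where 23.9% and 29.3% of all tested genes were. POLI (-0.83) and POLH (-0.57) were among the lower. The 3 that were higher, none of them called, were PRIMPOL (0.57), a primase that restarts stalled forks, POLK (0.40) and the base excision repair polymerase POLB (0.36). POLB was at 24.5, 22.3 and 20.9 TPM in CON, against 30.2, 29.1 and 28.3 TPM in CDCA.

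**Figure D4:**
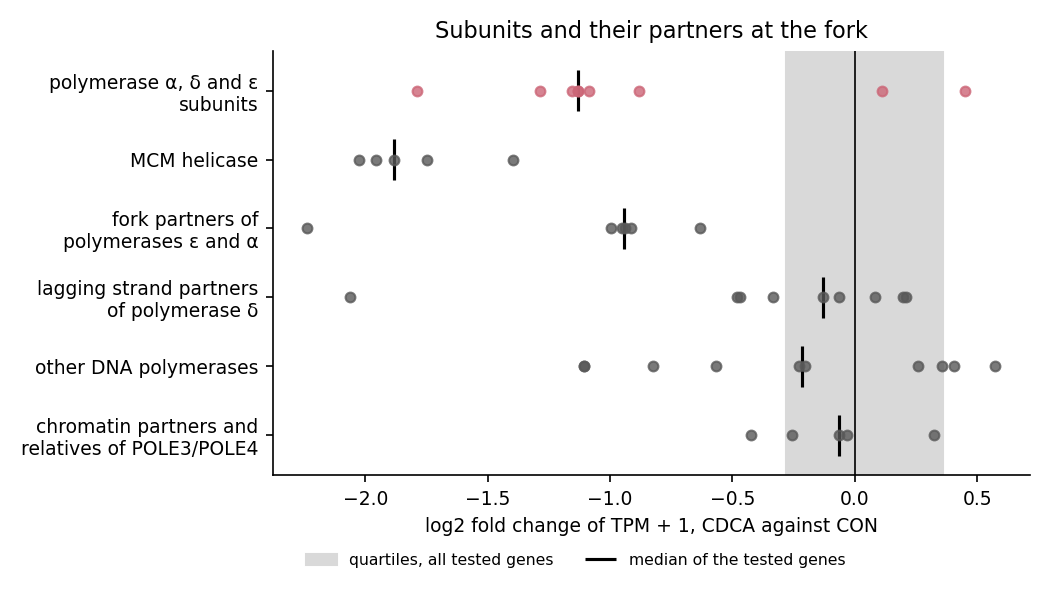
Log2 fold change of TPM + 1 in CDCA against CON for each tested gene of the replicative polymerase subunits (9 genes) and of 5 lists of partners and relatives. Each point is a gene, the bar is the median of the tested genes of the list and the shaded band spans the quartiles of all tested genes (-0.28 to 0.36); the medians are -1.13 for the subunits, -1.88 for the MCM helicase and -0.21 for the other DNA polymerases, or 0.03 over the 8 of these with a mean of at least 1 TPM in both groups.

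The calls of the 5 subunits were stable over the settings tried. POLA1, POLA2, PRIM1, POLE and POLE2 were called lower in each of 15 alternatives, which covered other scalings, filters and models and the removal of libraries. With CON replicate 3 and CDCA replicate 2 both left out, 5 of the 10 genes were again called lower. POLE stayed the largest fall of the tested subunits, between -2.23 and -1.73 over these alternatives.

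**Figure D5:**
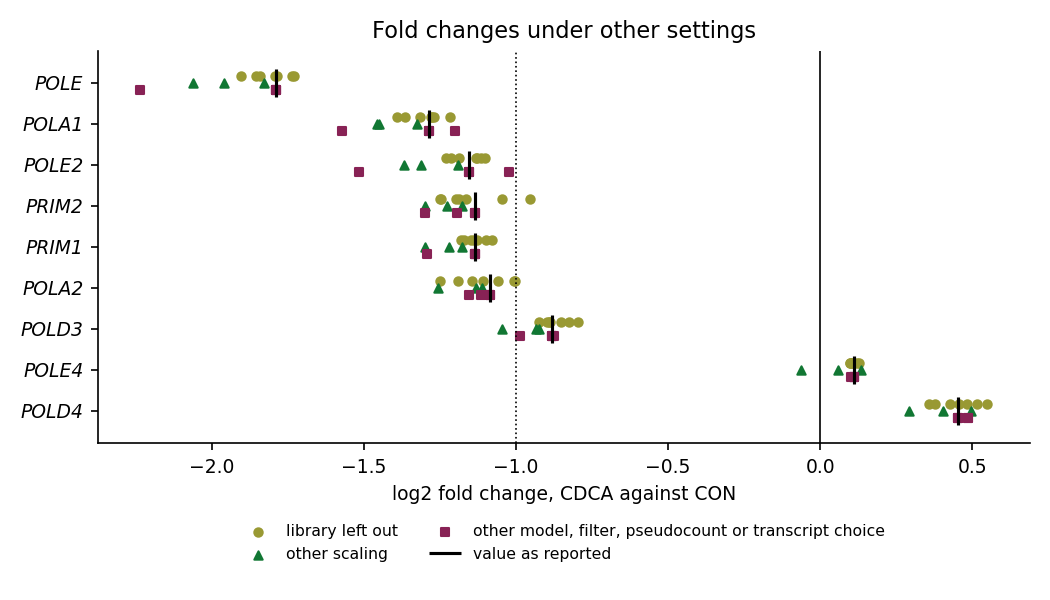
Log2 fold change in CDCA against CON for the 9 tested subunits under each alternative, with the reported value as a black bar and the limit for a call as a dotted line. The 7 subunits that fell stay left of 0 under all 15 alternatives, PRIM2 crosses the limit in 1 and POLD3 in 1, and POLE4 crosses 0 once.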

How the data were processed

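RNA-seq of 6 IPEC-J2 libraries (3 CON, 3 CDCA; groups from the sample titles) was analysed. The authors deposited TPM values, made with RSEM, for 63041 listed transcripts without transcript IDs or read counts. The submitters' processing notes name Bowtie 0.12.2 and the mouse build mm10 with no role, although the gene IDs are Ensembl pig IDs, so no coordinates are given. The study's own test used edgeR, a test for counts, and count tests were not run. The aligner's settings and the annotation release are not given in the sources used here. TPM were summed per gene ID, and gene symbols were matched by ID (15029 of 31908) and otherwise taken from the deposited names. limma 3.58.1 in R 4.3.3 (lmFit, then eBayes with a trend) was fitted to log2(TPM + 1) over all 8708 genes whose mean reached 1 TPM, with Benjamini-Hochberg adjustment over all of them. On this scale the change of a weakly expressed gene is understated. The script was tested on simulated data before use. Subunit ratios were compared with scipy 1.17.1. The genes and lists were chosen with earlier results of these data known. Named genes were the 10 subunit genes, PRIM2, POLD2, up to 5 of each list by fold change, and the 5 genes closest in pattern to the catalytic subunits. POLK, POLB, TIMELESS, POLDIP2, PCNA, MCM6 and the cell markers were named outside this rule, after their values were seen. Alternatives were another pseudocount, no filter, 3 other scalings, the highest listed transcript, a replicate block, limma without trend and each library left out. Leaving out CON replicate 3 and CDCA replicate 2 together, other scalings of the lists, 2 of the ratios and the test of ratios without a pseudocount were added after the data were seen. The study states read totals per library, but the reads behind each TPM value are unknown, and no counting interval is given. Sequences and positions were not used here.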

Additional observations from a re-analysis of the deposited data

How the results depend on the processing

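No read counts per gene were used, so the limit that depth sets on each gene was not computed, and POLD1, POLD2 and POLE3 could not be judged at their listed levels. Over 15 alternatives, 5 or 6 of the 10 subunit genes were called lower (6 without the mtDNA-encoded mRNAs, through POLD3), none was called higher, and 6 were lower at an FDR under 0.05 in each. The 2 that were higher at an FDR under 0.05 (POLD4 and POLE4) became 1 with no filter, median ratio scaling, the highest listed transcript, limma without trend or the replicate block, and 0 without the mtDNA-encoded mRNAs or with CON replicate 3 and CDCA replicate 2 left out; leaving out single libraries gave 0 to 1. The cause was not tested. The log2 fold change of POLE4 reversed to -0.0627 without the mtDNA-encoded mRNAs. The ratio of POLD3 to POLD1 changed by -0.47 on the log2 scale with 1 TPM added and by 0.35 without it, and that of POLD2 to POLD1 by 0.22 and, with single libraries left out, by -0.0288 (without CON replicate 1) to 0.413. The latter, and POLE3 to POLE, allowed no log2 ratio without a pseudocount because of values of 0. For both pairs the mean ratio of TPM was lower in CDCA than in CON, opposite to the change with 1 TPM added. Over all genes, 306 were called higher, 509 with a pseudocount of 0.1 TPM and 523 with the listed TPM rescaled to 1000000, for which the cause was not tested (303 with no filter). Libraries with the same number share only a number: deviations from the group means had correlations of -0.09 to -0.04 between same numbers, and none correlated best with its own number. With the replicate block 343 genes were called lower and 309 higher, against 340 and 306, and PRIM2 and the 5 called subunits stayed called.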

Other observations

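POLE3 and POLE4 are histone-fold proteins that also belong to chromatin complexes, and their partners and relatives there were listed as 8 genes, of which 5 were tested. limma called none, where 3.9% of all tested genes were called lower and 3.51% higher. At an unadjusted p under 0.05, 1 was lower and 0 higher (over all tested genes, 26.7% and 32.3%), and the median log2 fold change was -0.06. CHRAC1, the histone-fold partner of POLE3 in a nucleosome-sliding complex, was at 43.4, 43.4 and 42.2 TPM in CON, against 40.8, 38.3 and 44.4 TPM in CDCA, with overlapping groups and a log2 fold change of -0.06 (95% interval -0.20 to 0.08, limma FDR 0.40). DR1, a histone-fold repressor of transcription, its partner DRAP1 and NFYC, a histone-fold subunit of the factor NF-Y, also overlapped, with log2 fold changes of -0.03, 0.32 and -0.26 (limma FDR 0.74, 0.097 and 0.31). BAZ1B, a subunit of imitation-switch remodelling complexes, had a log2 fold change of -0.42 (limma FDR 0.0097) and was the 1 gene of the list with an FDR under 0.05.

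The genes whose pattern over the 6 libraries was closest to the mean log2(TPM + 1) of POLA1, POLD1 and POLE were POLQ (Pearson's r 0.999), SMC4 (0.999), UTP4 (0.999), TTK (0.998) and BLM (0.998). SMC4 is a condensin subunit, TTK a kinase of the spindle checkpoint and BLM a helicase of recombination. Their lower level in CDCA follows from this choice and is no finding, POLD1 was near 0 in the mean used, and 183 of the 8708 tested genes had an r over 0.99, so the likeness singles out no gene. UTP4 shared the pattern with a much smaller change, at 35.5, 33.8 and 33.4 TPM in CON, against 27.9, 27.6 and 27.3 TPM in CDCA (log2 fold change -0.30).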
